A study of Mus musculus with 6 samples.

Results

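Long noncoding RNAs (lncRNAs) with enough reads to be measured in every pool of inguinal white adipose tissue (IngWAT) were compared between *Hdac3* floxed mice and H3atKO mice, which lack *Hdac3* in adipose tissues. The lncRNAs were the genes that GENCODE M21 (GRCm38) lists as lincRNA (intergenic) or antisense and that had at least 50 counts in each of the 6 samples, without *H19*. There were 134 of them, 74 lincRNA and 60 antisense genes, among 46517 genes listed in the files and among 2623 lincRNA and antisense genes with any count. They were chosen by their counts, and a minimum in every sample leaves out genes that were low in either genotype, so the counts and medians given for them describe these genes and no others. *Gm31305*, *Gm45495* and *H3f3aos* lay just inside the limit, each with a lowest sample of 51 counts. *D130017N08Rik* and *Gm15417*, whose lowest samples had 49 counts, lay just outside.

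Both groups were C57Bl6 mice of 5 to 9 months on chow diet, and both carried the floxed *Hdac3* allele. The study's methods give adult males for all its experiments. H3atKO mice also carried the Adipoq-cre transgene, whose adiponectin promoter acts in adipocytes, so the other cells of the tissue kept *Hdac3*. Each of the 3 samples per genotype was one pool of RNA from 2 or 3 mice, sequenced as stranded, poly(A)-selected libraries. The samples held from 23865507 to 35200685 counts on genes. In floxed replicates 1 to 3 the lncRNAs took 0.668%, 0.699% and 0.532% of them, and the H3atKO pools gave them 0.455%, 0.325% and 0.348% in the same order.

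LncRNAs are transcribed and spliced much like messenger RNAs, but most are not known to be translated into stable proteins. Some build nuclear bodies or silence chromatin in cis, some carry microRNAs or small nucleolar RNAs (snoRNAs) in their introns, and many arise at the start of a coding gene, on the opposite strand, from the same open promoter. HDAC3 is the histone deacetylase of the NCoR and SMRT corepressor complexes, which nuclear receptors recruit to chromatin to keep genes low. The comparison asked which of the well-measured lncRNAs of fat change when adipocytes lose this enzyme, and whether the coding gene next to each one changes with it.

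Of the 134 lncRNAs, 39 started within 1000 bases of their coding neighbour's start, on the opposite strand. The 12 highest and 12 lowest fold changes included 10 such pairs. The 250 bases before the RefSeq start of the coding gene are printed for 5 of them, chosen with their values known: the 4 whose lncRNA was called with and without the replicate block and the GC correction described below, and *Mcam*, whose GENCODE start lies closest to that of its lncRNA. All distances between starts are taken from GENCODE, and RefSeq starts can differ. *Mcam* starts at 44134469 in GENCODE, inside its printed window, and at 44134658 in RefSeq, just after the window. The build is GRCm38.p6, each sequence reads 5′ to 3′ on the strand of the coding gene, and capitals mark matches to any of the motifs named below, on either strand.

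*Tbl1xr1* (chr3:22076402-22076651, plus strand; *Gm43672* starts 510 bases before *Tbl1xr1*, beyond the far end of the window): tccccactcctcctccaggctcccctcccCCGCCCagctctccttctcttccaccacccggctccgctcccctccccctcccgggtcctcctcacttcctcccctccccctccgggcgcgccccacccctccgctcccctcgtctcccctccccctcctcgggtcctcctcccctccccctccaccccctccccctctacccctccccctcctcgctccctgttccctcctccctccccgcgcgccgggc

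*Fam120a* (chr13:48968061-48968310, minus strand; *Fam120aos* starts at position 48968287, inside the window): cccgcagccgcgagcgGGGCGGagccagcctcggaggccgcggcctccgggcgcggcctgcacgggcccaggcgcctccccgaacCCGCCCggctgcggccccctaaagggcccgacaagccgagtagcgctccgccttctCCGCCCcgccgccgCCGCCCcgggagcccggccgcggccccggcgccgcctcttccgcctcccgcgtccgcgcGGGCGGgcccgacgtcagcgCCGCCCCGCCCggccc

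*Dmrt2* (chr19:25672161-25672410, plus strand; *2610016A17Rik* starts at position 25672253, inside the window): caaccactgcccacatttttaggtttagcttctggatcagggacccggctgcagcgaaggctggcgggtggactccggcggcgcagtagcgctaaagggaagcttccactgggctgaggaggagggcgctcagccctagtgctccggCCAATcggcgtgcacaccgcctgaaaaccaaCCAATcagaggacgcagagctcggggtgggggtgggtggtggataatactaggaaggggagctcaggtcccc

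*Sema5a* (chr15:32244563-32244812, plus strand; *Snhg18* starts at position 32244662, inside the window): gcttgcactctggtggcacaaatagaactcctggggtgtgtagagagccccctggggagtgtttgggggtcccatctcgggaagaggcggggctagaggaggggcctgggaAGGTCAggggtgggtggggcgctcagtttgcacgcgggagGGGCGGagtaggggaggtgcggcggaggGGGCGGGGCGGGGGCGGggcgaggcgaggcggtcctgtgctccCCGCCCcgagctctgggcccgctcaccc

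*Mcam* (chr9:44134408-44134657, plus strand; *Gm10687* starts at position 44134485, inside the window): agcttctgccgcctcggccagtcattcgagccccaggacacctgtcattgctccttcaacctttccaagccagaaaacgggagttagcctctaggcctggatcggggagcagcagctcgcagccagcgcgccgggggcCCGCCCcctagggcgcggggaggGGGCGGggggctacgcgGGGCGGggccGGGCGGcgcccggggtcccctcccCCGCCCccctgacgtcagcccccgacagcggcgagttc

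The motifs searched were the GC box (GGGCGG), the CCAAT box (CCAAT), the TATA box (TATAAA), the E-box (CACGTG) and the nuclear receptor half-site (AGGTCA). GC boxes were found 1 time before *Tbl1xr1*, 7 times before *Fam120a* and 5 times each before *Sema5a* and *Mcam*, with matches that may overlap, and 32.7% of the 32851 RefSeq promoters hold at least one. The *Dmrt2* window held no GC box and 2 CCAAT boxes, a motif found in 33.8% of all promoters. The *Sema5a* window held 1 nuclear receptor half-site, which 14% of promoters hold. The letters of the TATA box and the E-box, present in 12.4% and 6.02% of promoters, were not in these 5 windows. All 5 windows were rich in G and C, from 62.4% before *Dmrt2* to 85.2% before *Fam120a*, against a median of 52.4% over all promoters. Across the lncRNAs with a RefSeq promoter, 78 of 134, the median was 54.0%.

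The targeted gene, *Hdac3* (ENSMUSG00000024454, chromosome 18 from 37935844 to 37955016), was at 68.9, 80.3 and 65.9 cpm in floxed replicates 1 to 3 and at 27.4, 21 and 12.9 cpm in H3atKO replicates 1 to 3. Here and below, cpm is the count of a gene relative to the size of its library after scaling by TMM, which equalises the samples on the bulk of their genes. *Hdac3* fell by 1.83 on the log2 scale (standard error 0.32, adjusted p = 0.0213, limma voom over 14967 genes), with no overlap between the genotypes. Values with the replicate block or with the GC correction are given beside the main fit where they change the call of a named gene. For some genes the value with both is given as well. The replicate block adds the replicate number of the labels to the model, because samples with the same number deviated together. The labels themselves do not name them as pairs. The GC correction removes each sample's dependence on the GC content of the transcripts, which ran with the genotype: across the 134 lncRNAs, a sample's deviation from the gene means followed GC content with a Spearman's rho of 0.530, 0.404 and 0.003 in the floxed pools and of -0.245, 0.003 and -0.580 in the H3atKO pools, in order of replicate number. Genes of the mitochondrial genome took 6.9% to 12.9% of the counts in floxed and 26.9% to 35.3% in H3atKO samples. The part of GC content, of RNA quality and of genotype in a change cannot be told apart where the correction moves it.

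With TMM scaling more lncRNAs were called higher than lower in H3atKO IngWAT, but not when GC content was corrected for. At an adjusted p under 0.05, 14 of the 134 (10.4%) were upregulated and 4 (2.99%) were down-regulated, where 9.42% and 7.07% of all 14967 genes tested were. Of the 8924 coding genes with at least 50 counts in every sample, 13.8% were called higher and 5.78% lower. The replicate block kept all 18 of these calls and gave 43 and 12 (background 24.8% and 28.7%). With the GC correction 6 were called higher and 7 lower (background 5.59% and 3.11%), and with both 15 and 15 (background 13.1% and 9.71%). edgeR's quasi-likelihood test called 23 and 6 (background 12.8% and 18.4%), and DESeq2 called 39 and 11 (background 19.6% and 23.2%). By values alone, all 3 H3atKO samples lay above all 3 floxed samples for 47 lncRNAs (35.1%) and below them for 11 (8.21%). The shares were 23.1% and 28.6% of all genes, and 32.4% and 20.4% of the coding genes with the same minimum.

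**Figure D1:**
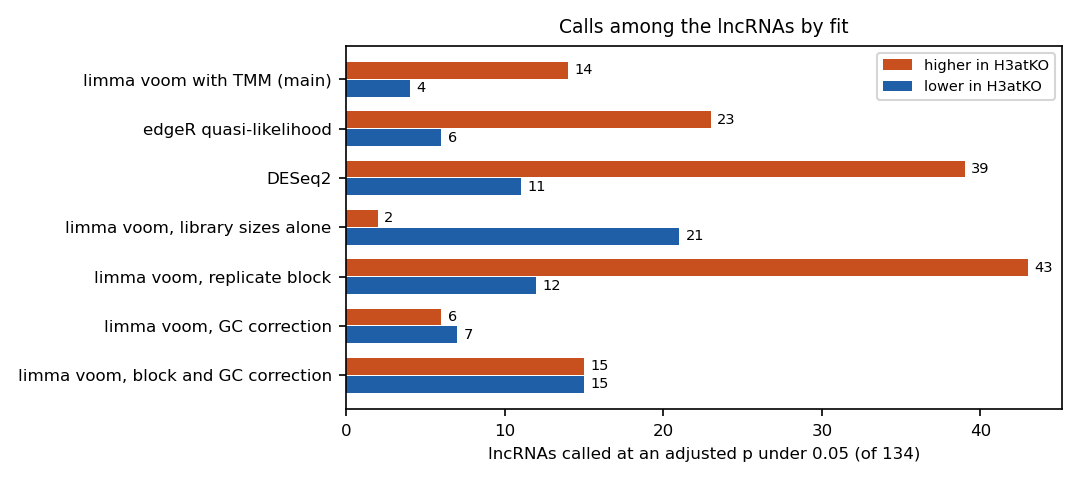
Number of lncRNAs, of 134, called at an adjusted p under 0.05 in each fit (horizontal axis), higher in H3atKO (orange) and lower in H3atKO (blue). Higher calls outnumber lower ones 14 to 4 in the main fit, are 6 to 7 after the GC correction, and are 2 to 21 when libraries are scaled by their totals alone.

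The median log2 fold change of the lncRNAs was 0.41, with an interquartile range from -0.06 to 0.97, against -0.09 for all genes tested and 0.22 for the 8924 coding genes that met the same minimum of 50 counts. The lincRNA genes had a median of 0.60 and the antisense genes one of 0.32. Scaling by library totals alone, without TMM, lowered the median of all genes to -0.94 and that of the lncRNAs to -0.44, and it called 2 higher and 21 lower (background 2.04% and 37.9%). Relative to the median of all genes, the lncRNAs were 0.50 higher with TMM and 0.51 higher with library totals. A change of scaling shifts all genes nearly alike, so these 2 values had to be close. The coding genes with the same minimum were 0.32 above all genes with either scaling. After the GC correction the median of the lncRNAs was 0.07, which is 0.05 above that of all genes. The median of these coding genes was then 0.10, above that of the lncRNAs. The 404 other lincRNA and antisense genes that were tested but had under 50 counts in some sample had a median of -0.42.

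The lncRNAs changed along GC content. They were split into 4 groups of 33 or 34 genes by GC content. In the group with the lowest GC content, 34.1% to 42.0%, the median log2 fold change was 0.98, and 5 genes were called higher. In the next group, up to 45.8%, it was 0.74, in the one up to 48.1% it was 0.06, and in the group with the highest GC content, 48.3% to 65.0%, it was 0.17. Spearman's rho between GC content and fold change was -0.42 over the 134 lncRNAs and -0.70 over the 8924 coding genes, as a description across genes that share the same 6 libraries. After the correction the 4 medians were 0.03, -0.01, -0.17 and 0.42. Only 3 lncRNAs had a GC content of 60.0% or more, and of these *Zbtb11os1* (65.0% GC) and *Gm6277* (60.0% GC) moved from log2 fold changes of 0.97 and 0.62 to 3.93 and 2.88 under the correction.

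**Figure D2:**
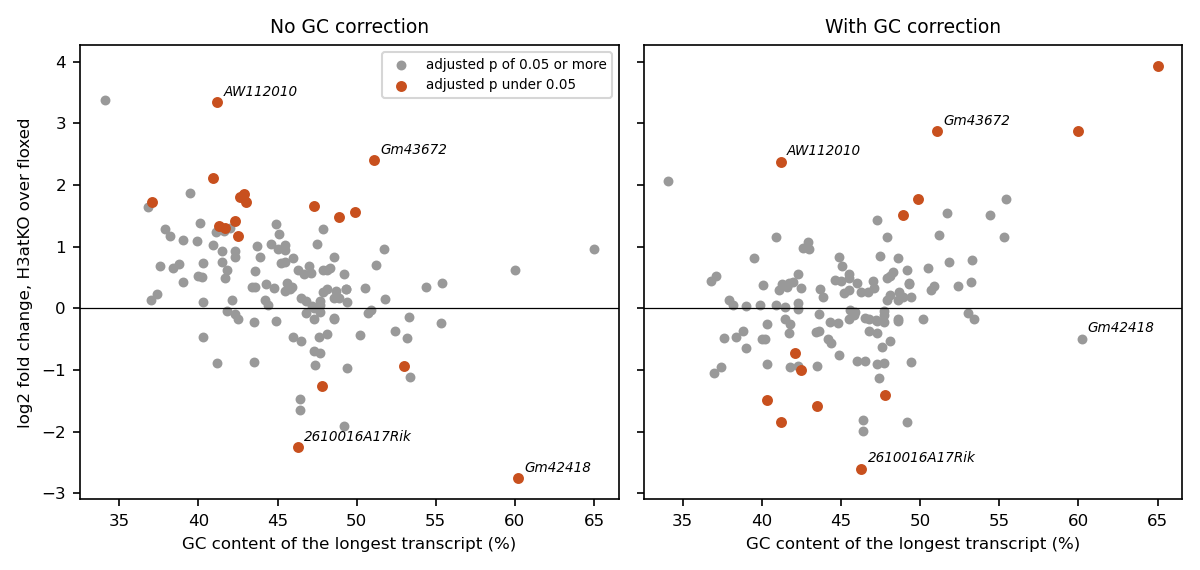
Log2 fold change of each of the 134 lncRNAs (vertical axis) against the GC content of its longest transcript (horizontal axis, %), without and with the GC correction; orange points have an adjusted p under 0.05. Without the correction 10 of the 14 called points above 0 lie at or below 43% GC, whereas *AW112010*, *Gm43672* and *2610016A17Rik* are called in both panels and *Gm42418* moves from -2.76 to -0.49.

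A group of 6 lncRNAs was called in the same direction by limma voom with and without the replicate block, with and without the GC correction and with both, and by edgeR. These were *AW112010*, *Gm43672*, *Fam120aos* and *1700052K11Rik*, all higher, and *Snhg18* and *2610016A17Rik*, both lower. Leaving out single libraries, which set 2 samples against 3, ended many calls. Of the 18 calls of the main fit, 18 were kept without floxed replicate 3, 5 without H3atKO replicate 2, 3 without floxed replicate 1 or H3atKO replicate 1, 1 without H3atKO replicate 3 and 0 without floxed replicate 2 (limma; there 21 lncRNAs were higher and 6 lower at an unadjusted p under 0.05), while all 18 kept their direction each time.

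*AW112010* (ENSMUSG00000075010, chromosome 19 from 11047612 to 11055808) showed the largest called increase. It is a short transcript known from immune cells, where interferon and bacterial stimuli induce it. It was at 32.0, 39.9 and 56.7 cpm in floxed replicates 1 to 3 and at 556.3, 396.4 and 340.5 cpm in H3atKO replicates 1 to 3. Every H3atKO pool was thus several times above every floxed pool. The increase was 10.1-fold (log2 fold change 3.34, standard error 0.31, adjusted p = 0.00793, limma), and 2.38 on the log2 scale after the GC correction (adjusted p = 0.0141). It stayed under 0.05 in 5 of the 6 fits that left out 1 library, with adjusted p from 0.0042 to 0.0516. Per length it was at 53.3 ± 15.7 cpm per kilobase of exon in floxed and at 536.1 ± 139.3 in H3atKO samples (SD, n = 3 each).

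The pools also differed in their immune cells. The summed level of 11 lymphocyte markers was 144.0, 7.0 and 5.88 cpm in floxed replicates 1 to 3 and 380.9, 7.44 and 513.9 cpm in H3atKO replicates 1 to 3, so H3atKO replicate 2 was close to floxed replicates 2 and 3, and floxed replicate 1 lay between these 3 pools and the other H3atKO pools. Their part in the *AW112010* values was not tested. The 7 macrophage markers summed to between 415.6 and 2241 cpm in floxed and between 338.6 and 588.9 cpm in H3atKO pools, and 3 of the 7 were called lower. In whole tissue, fewer cells of a type and less RNA per cell cannot be told apart. The nearest coding gene of *AW112010*, *Ms4a8a*, 11662 bases away on the same strand, had a log2 fold change of -0.27 (adjusted p = 0.809, limma).

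*AI504432* and *Gpr141b* were highest in H3atKO replicates 3 and 1, as the lymphocyte markers were. *AI504432* (chromosome 3 from 107039504 to 107054347) lies 1433 bases from *Kcna3*, which encodes a potassium channel of T cells, and it was at 3.78, 1.39 and 1.80 cpm in floxed and at 36.3, 3.82 and 86.7 cpm in H3atKO replicates 1 to 3. Both H3atKO pools with many lymphocyte markers were high, and H3atKO replicate 2 lay close to floxed replicate 1. Its log2 fold change, 3.38, was the highest of all 134, with a standard error of 1.25 and an adjusted p of 0.0833 (limma; 0.00658 with the replicate block). *Gpr141b*, at 2.17, 1.3 and 2.80 cpm in floxed and 8.36, 3.06 and 15.9 cpm in H3atKO replicates, did not follow the markers among the floxed pools, where replicate 3 was the highest (log2 fold change 1.87, adjusted p = 0.0763 from limma, and 0.00549 with the block). Its neighbour *Gpr141*, a receptor gene, was at 0.144 to 0.948 cpm in floxed and 0.561 to 3.92 cpm in H3atKO and was not called (log2 fold change 2.23, adjusted p = 0.117, limma; 0.00911 with the block), and *Kcna3* was too low to be tested. The part of lymphocytes in these values was not tested.

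*Gm43672* (ENSMUSG00000106019, chromosome 3 from 22074412 to 22076142) is the lincRNA that starts head to head with *Tbl1xr1*, whose promoter is printed above. *Tbl1xr1* encodes a subunit of the NCoR and SMRT complexes that hold HDAC3. *Gm43672* was at 2.42, 1.76 and 2.48 cpm in floxed and at 13.2, 10.4 and 11.6 cpm in H3atKO replicates 1 to 3. This 5.33-fold increase (log2 fold change 2.41, standard error 0.35, adjusted p = 0.0149, limma) remained at 2.87 after the GC correction (adjusted p = 0.00967). *Tbl1xr1* was at 35.7, 36.1 and 58.3 cpm in floxed and at 156.6, 169.6 and 253.8 cpm in H3atKO replicates 1 to 3. Both genes of the pair were thus higher in every H3atKO pool than in any floxed pool, and the coding gene rose by 4.48-fold (log2 fold change 2.16, standard error 0.31, adjusted p = 0.0136, limma; 1.27 and 0.013 after the GC correction).

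*Fam120aos* and *Fam120a*, which start 270 bases apart on opposite strands of chromosome 13, also rose together. *Fam120a* encodes an RNA-binding scaffold protein. *Fam120aos* (ENSMUSG00000097059) was at 6.92, 10.1 and 11 cpm in floxed and at 19.7, 27.6 and 38.6 cpm in H3atKO replicates 1 to 3 (2.96-fold, log2 fold change 1.57, standard error 0.36, adjusted p = 0.0344, limma). *Fam120a* went from 183.0 ± 37.8 to 412.3 ± 112.4 cpm (SD, n = 3 each; log2 fold change 1.16, adjusted p = 0.0382, limma). The genotypes did not overlap for either gene. After the GC correction both were called, at log2 fold changes of 1.77 and 1.58 (adjusted p = 0.0353 and 0.037).

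*2610016A17Rik* and *Dmrt2* were the pair that fell. *Dmrt2* encodes a DM-domain transcription factor, and the antisense lncRNA starts 158 bases from it, with both CCAAT boxes of the printed window between the starts. *2610016A17Rik* (ENSMUSG00000101089, chromosome 19 from 25671134 to 25672253) was at 34.4, 45.1 and 20.1 cpm in floxed and at 3.91, 12.5 and 6.13 cpm in H3atKO replicates 1 to 3. It fell by 2.25 on the log2 scale (standard error 0.53, adjusted p = 0.036, limma) and by 2.60 after the GC correction (adjusted p = 0.0413). *Dmrt2* was at 82.0, 109.0 and 41.6 cpm in floxed and at 15.8, 31.2 and 13.0 cpm in H3atKO replicates 1 to 3. Within each genotype replicate 2 was the highest pool for both genes, and the genotypes did not overlap. *Dmrt2* fell by 1.94 on the log2 scale (adjusted p = 0.0409, limma), and its call was lost with the GC correction (log2 fold change -0.78, adjusted p = 0.208) and regained when the replicate block was added to it (adjusted p = 0.0366).

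*Snhg18*, the host of a snoRNA, was at 24.4, 33.1 and 25.5 cpm in floxed and at 9.10, 16.4 and 10.1 cpm in H3atKO replicates 1 to 3. All H3atKO pools were below all floxed pools, and it fell by 1.26 on the log2 scale (standard error 0.33, adjusted p = 0.0437, limma; -1.41 and 0.0343 after the GC correction). Its head-to-head partner *Sema5a*, a semaphorin that guides axons and vessels, was at 38.1, 81.8 and 57.3 cpm in floxed and at 15.9, 51.7 and 50.3 cpm in H3atKO, so the genotypes overlapped (log2 fold change -0.75, adjusted p = 0.279).

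*Gm10687* starts 16 bases from the GENCODE start of *Mcam* (CD146), which encodes an adhesion molecule of vessel walls. The lncRNA was at 30.9, 38.6 and 16.4 cpm in floxed and at 6.38, 16.7 and 8.91 cpm in H3atKO replicates 1 to 3, with 1 overlapping pair of pools, and was not called (log2 fold change -1.47, standard error 0.50, adjusted p = 0.0707, limma; 0.0117 with the replicate block). *Mcam* fell from 627.1, 554.4 and 172.7 cpm to 34.1, 91.8 and 27.4 cpm, by 3.14 on the log2 scale (adjusted p = 0.0269, limma; -2.13 and 0.0459 after the GC correction). The 5 endothelial markers summed to between 481.5 and 956.6 cpm in floxed and between 342.6 and 465.8 cpm in H3atKO pools, and 3 of the 5 were called lower. Their part in the fall of *Mcam* and *Gm10687* was not tested.

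The fold changes of lncRNA and neighbour were then set side by side for all pairs. Over the 39 pairs with starts within 1000 bases, Spearman's rho between the log2 fold changes of lncRNA and neighbour was 0.51, and 0.55 after the GC correction. Over the 79 other pairs whose neighbour was tested it was 0.18 and 0.21. The points share the same 6 libraries, and the difference between both sets was not tested. The same sign was seen in 24 of the 39 pairs and in 39 of the 79. *A530020G20Rik*, which starts 785 bases from *Slc44a3*, was at 79.1, 194.7 and 90.3 cpm in floxed and at 18.9, 61.2 and 41.2 cpm in H3atKO (log2 fold change -1.65, adjusted p = 0.0603; 0.00409 with the block), while *Slc44a3*, a choline transporter-like gene, had a log2 fold change of -0.10 (adjusted p = 0.871, limma).

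**Figure D3:**
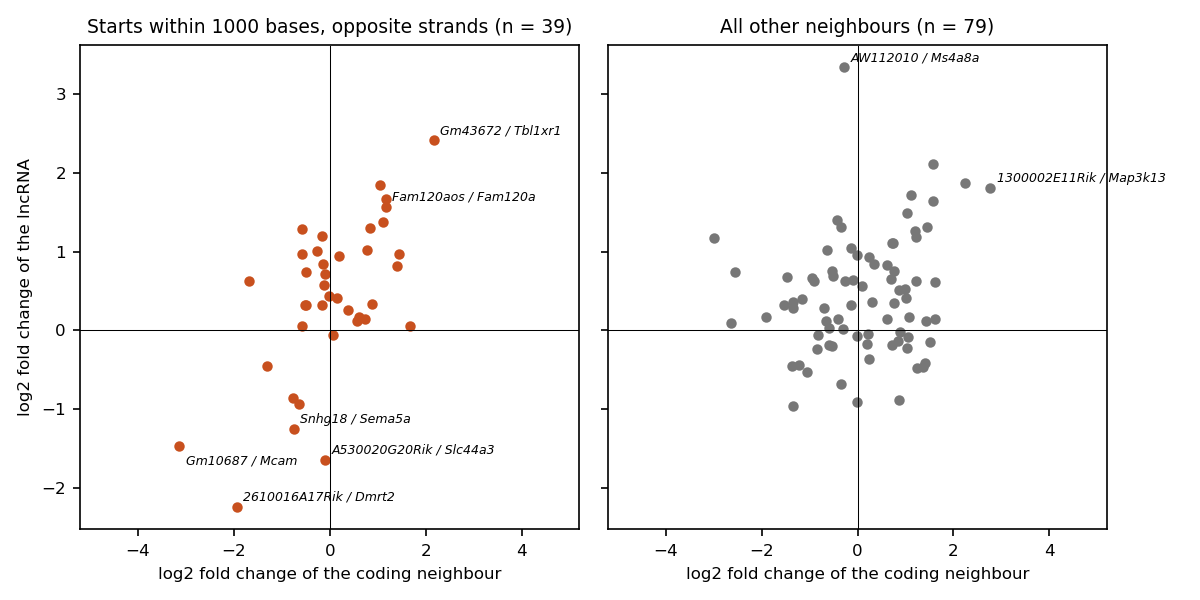
Log2 fold change of each lncRNA (vertical axis) against that of its coding neighbour (horizontal axis), H3atKO over floxed, for 39 pairs that start within 1000 bases of each other on opposite strands (left) and 79 other pairs whose neighbour was tested (right). *Gm43672* with *Tbl1xr1* and *2610016A17Rik* with *Dmrt2* sit at opposite ends of the left panel, and *AW112010* stands alone in the right panel, above a neighbour near 0.

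Of the 18 called lncRNAs, 15 had a neighbour that was tested, and 8 of these neighbours were themselves called, all in the direction of the lncRNA. Of all tested coding genes 17.2% were called. With the GC correction 3 of the 8 were called, *Tbl1xr1*, *Fam120a* and *Map3k13*. Besides *Tbl1xr1*, *Fam120a* and *Dmrt2*, the 8 were *Map3k13*, *Thumpd3*, *Ccnl1*, *Rsbn1* and *Tlk2*, all higher. *Map3k13*, a kinase upstream of JNK, overlaps *1300002E11Rik* on the same strand, and reads that lie on both were counted for neither. The lncRNA was at 26.7, 31.8 and 31.2 cpm in floxed and at 140.7, 84.5 and 94.4 cpm in H3atKO (log2 fold change 1.81, adjusted p = 0.0151, limma), and *Map3k13* went from 0.601 ± 0.0854 to 4.62 ± 3.05 cpm (SD, n = 3; log2 fold change 2.77, adjusted p = 0.0342). *1300002E11Rik* was not called after the GC correction alone (log2 fold change 0.98, adjusted p = 0.0852) but was with the block added (adjusted p = 0.0269).

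*1700052K11Rik*, named after its values were seen because it was one of the 6 called with and without the block and the correction, overlaps the start region of *Tlk2*, a kinase of chromatin assembly, on the other strand. It was at 4.61, 4.76 and 5.06 cpm in floxed and at 12.4, 19.8 and 9.80 cpm in H3atKO replicates (log2 fold change 1.49, standard error 0.37, adjusted p = 0.0394, limma). *Tlk2* went from 50.5 ± 10.2 to 101.9 ± 6.31 cpm (SD, n = 3; adjusted p = 0.0344), a call that was lost with the GC correction (adjusted p = 0.0977). *Gt(ROSA)26Sor*, the transcript of the ROSA26 locus used for transgenes, was at 14.6, 19.1 and 20.2 cpm in floxed and at 36.5, 55.7 and 102.8 cpm in H3atKO. It was called in the main fit (log2 fold change 1.72, adjusted p = 0.036, limma) and not after the GC correction (0.52, adjusted p = 0.204). Its antisense neighbour *Thumpd3*, a tRNA methyltransferase gene, had log2 fold changes of 1.11 and 0.06 in the same fits (adjusted p = 0.031 and 0.883). *Gm37305*, at 14.3 to 25.9 cpm in floxed and 37.4 to 110.7 cpm in H3atKO, and its partner *Ccnl1*, a cyclin of RNA processing, had log2 fold changes of 1.66 and 1.17 (adjusted p = 0.0453 and 0.0421, limma) and neither was called after the correction (adjusted p = 0.0821 and 0.43).

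Among the other lncRNAs of the 12 with the highest change, *Phtf1os* (log2 fold change 2.12, adjusted p = 0.0435), *Gm10419* (1.85, 0.0348) and *1700096K18Rik* (1.73, 0.0332) were called and *Gm43848* (1.64, 0.0525; 0.00659 with the block) was not. None of these 4 was called with the GC correction alone, and *Phtf1os* was when the block was added (adjusted p = 0.0411). *Phtf1os* and *Rsbn1*, which overlap on opposite strands, were both higher in every H3atKO pool, and *Rsbn1* was called without the correction (adjusted p = 0.04) and not with it (0.0987). *Gm10419* overlaps *Gm42517*, which was at 0.340 to 0.697 cpm in floxed and 0.695 to 1.15 cpm in H3atKO (log2 fold change 1.05, adjusted p = 0.189, limma; 4.15 and 0.0296 after the GC correction), and *Cct8l1*, next to *1700096K18Rik*, was too low to be tested. *Gm43848* lies 119 bases from *Rap1a*, a small GTPase, which was called at a log2 fold change of 1.57 (adjusted p = 0.0314, limma; 0.114 after the GC correction). The other calls, *Gm12002*, *Gm11837* and *Gm20045*, are named for completeness and had log2 fold changes of 1.41, 1.33 and 1.31, none of them called after the correction. Every one of the 12 had all H3atKO pools above all floxed pools. They were picked by fold change in these same samples, which favours such a separation, and 35.1% of the 134 lncRNAs had it.

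**Figure D4:**
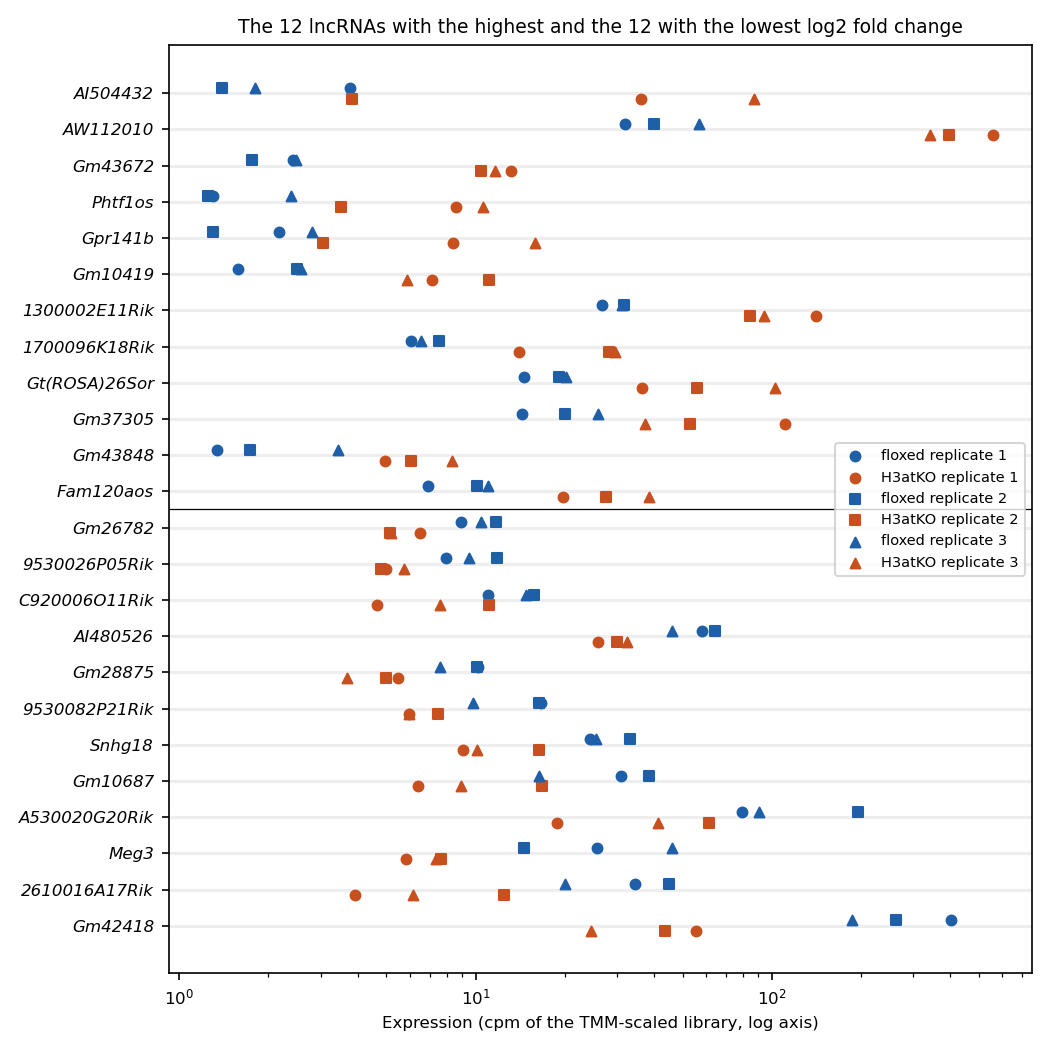
Expression (horizontal axis, cpm of the TMM-scaled library, logarithmic) of the 12 lncRNAs with the highest log2 fold change (above the line) and the 12 with the lowest (below it) in each floxed (blue) and H3atKO (orange) sample; marker shapes give the replicate number. The rows were picked by fold change in these same samples, which favours separation. The genotypes separate in all 12 upper rows, and *C920006O11Rik* and *Gm10687* overlap among the lower ones.

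The lowest fold change belonged to *Gm42418* (ENSMUSG00000098178, chromosome 17 from 39846958 to 39848788), which RefSeq lists as a synonym of *Rn18s-rs5*, a sequence related to 18S ribosomal RNA. It was at 401.6, 262.7 and 186.1 cpm in floxed and at 55.3, 43.5 and 24.5 cpm in H3atKO replicates 1 to 3. It fell by 2.76 on the log2 scale (standard error 0.40, adjusted p = 0.0149, limma), and by 0.49 after the GC correction (adjusted p = 0.305). Its GC content is 60.2%. Ribosomal RNA is not polyadenylated and its reads often have several genomic places, and the part of poly(A) selection and of alignment in this fall was not tested.

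Most of the other lncRNAs with the lowest fold changes did not pass the main test. *AI480526*, head to head with the histone methyltransferase gene *Setd1b*, was called (log2 fold change -0.93, adjusted p = 0.0478, limma) and lost the call after the GC correction (-0.08, adjusted p = 0.857). *Setd1b* had log2 fold changes of -0.64 without and 1.47 with the correction, called in neither (adjusted p = 0.281 and 0.0791). It was called higher when the block was added to the correction (1.49, adjusted p = 0.0215, limma). Conversely *Gm26782*, antisense to the telomerase component gene *Tep1*, and *9530026P05Rik*, antisense to the protease gene *Adamts9*, were called with the correction (log2 fold changes -1.59 and -1.84, adjusted p = 0.0281 and 0.0236) and with the block (adjusted p = 0.0353 and 0.0306) but not in the main fit (-0.87 and -0.89). *Tep1* had log2 fold changes of -0.78 and 0.22 in the same fits, called in neither (adjusted p = 0.0545 and 0.64) but called with the block (0.0143). *9530026P05Rik* was at 7.95 to 11.8 cpm in floxed and 4.79 to 5.75 cpm in H3atKO, while *Adamts9* had a positive log2 fold change of 0.87 that was not called (adjusted p = 0.101). *Gm28875*, *9530082P21Rik* and *C920006O11Rik* had log2 fold changes of -0.97, -1.11 and -0.92, called with the replicate block (adjusted p = 0.0174, 0.0127 and 0.0291) and not without it. Their neighbours *Syne3* and *Ick* had log2 fold changes of -1.35 and -0.02, neither called in the main fit (*Syne3* had an adjusted p of 0.00791 with the block), and *Kremen2* was too low to be tested, as were *Rtl1* next to *Meg3* and *Esp38* next to *Gm42418*.

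*Neat1* and *Malat1*, which organise nuclear bodies, were among the 5 most abundant lncRNAs. Per kilobase of exon, the 5 highest means over the 6 samples were those of *AW112010* (294.7 cpm), *Neat1* (90.9), *Gm42418* (88.6), *Malat1* (62.0) and *Gm454* (47.9). *Gm454* was at 20.2 to 26 cpm in floxed and at 12.5, 67.9 and 65.4 cpm in H3atKO replicates 1 to 3, which overlapped (log2 fold change 0.66, adjusted p = 0.434, limma). *Malat1*, an RNA of nuclear speckles, was at 221.8, 237.1 and 327.2 cpm in floxed and at 712.1, 392.8 and 704.8 cpm in H3atKO. It was called higher (log2 fold change 1.17, standard error 0.31, adjusted p = 0.046, limma), and not with the GC correction (0.33, adjusted p = 0.378). *Neat1*, the RNA on which paraspeckles are built, was at 2953, 2655 and 1480 cpm in floxed and at 1461, 1580 and 1197 cpm in H3atKO, and the genotypes overlapped (log2 fold change -0.69, adjusted p = 0.136, limma; 0.047 with the block and the GC correction).

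*Malat1* and *Neat1* are neighbours, 22035 bases apart on chromosome 19, and their ratio within a sample needs no scaling between samples. The ratio of *Malat1* to *Neat1* counts per kilobase was 0.223, 0.266 and 0.658 in floxed pools against 1.45, 0.739 and 1.75 in H3atKO pools, in order of replicate number. Every H3atKO pool was above every floxed pool, and the mean log2 ratio was 1.86 higher (exact permutation test, two-sided, p = 0.1, which is the lowest possible with 3 samples per group). The GC contents of the transcripts are 42.5% and 47.3%, and the part of GC content in this ratio was not tested. *Malat1* ends in a triple helix instead of a poly(A) tail, so that poly(A) selection recovers it incompletely, and the counts do not separate the short and long forms of *Neat1*.

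**Figure D5:**
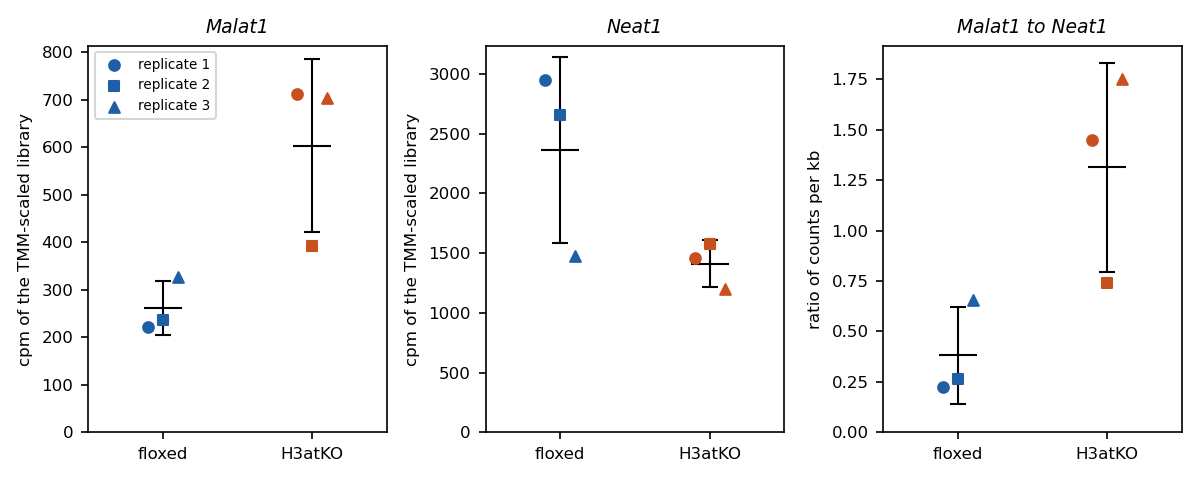
*Malat1* and *Neat1* (vertical axis, cpm of the TMM-scaled library) and the ratio of their counts per kilobase in the 3 floxed and 3 H3atKO samples; points are samples, bars the mean and SD. *Malat1* and the ratio separate the genotypes, from 0.223 to 0.658 in floxed and from 0.739 to 1.75 in H3atKO for the ratio, whereas *Neat1* overlaps.

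Of the 3 imprinted lncRNAs in the set, *Meg3* had the fold change farthest from 0. It is expressed from the maternal chromosome at the *Dlk1* locus, and was at 25.6, 14.6 and 46.0 cpm in floxed and at 5.81, 7.64 and 7.33 cpm in H3atKO replicates 1 to 3, without overlap. The log2 fold change of -1.91 (standard error 0.54) just missed the threshold (adjusted p = 0.0507, limma; 0.00768 with the replicate block, 0.077 with the GC correction). The 5 stromal progenitor markers, which summed to 1308, 1343 and 4092 cpm in floxed and 871.8, 1023 and 1482 cpm in H3atKO replicates, were also highest in floxed replicate 3, and 1 of the 5 was called lower. Their part in the *Meg3* values was not tested. *Kcnq1ot1* and *Airn*, antisense RNAs that silence imprinted neighbours from the paternal chromosome, had log2 fold changes of 0.74 and -0.53 (adjusted p = 0.157 and 0.291).

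The hosts of small RNAs gave mixed values. Among the snoRNA hosts, *Snhg18* was called lower, as above. In the main fit *Snhg6* (log2 fold change 0.93, adjusted p = 0.126, and 0.0370 with the block), *Snhg12* (-0.46, 0.308) and *Epb41l4aos* (-0.23, 0.605) were not called. With the block and the GC correction *Epb41l4aos* was called higher (1.17, adjusted p = 0.0462, limma). Among the microRNA hosts, *Mir17hg*, which carries the miR-17-92 cluster, was at 6.30, 6.81 and 8.39 cpm in floxed and at 18.3, 11.5 and 32.7 cpm in H3atKO, with no overlap (log2 fold change 1.39, adjusted p = 0.0576, limma; 0.00891 with the block, 0.414 with the GC correction). *Dnm3os*, host of miR-199a and miR-214, was at 5.56 to 23.9 cpm in floxed and 9.12 to 13.8 cpm in H3atKO (log2 fold change 0.14, adjusted p = 0.862). *Ftx*, an RNA of the X-inactivation centre that also hosts microRNAs, had a log2 fold change of 1.04 (adjusted p = 0.176, limma; 0.0373 with the block).

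Within the set, the lncRNAs listed for growth, stress and the cell cycle had positive log2 fold changes that did not pass the main test. Others of that list had under 50 counts in some sample and negative values. These were *Crnde* (-2.04, adjusted p = 0.0937), *Miat* (-1.54, 0.224) and *Ptprv* (-1.42, 0.422), none of them called (limma). *Tug1* was at 61.4, 85.6 and 133.4 cpm in floxed and at 169.6, 192.0 and 314.8 cpm in H3atKO (1.29, adjusted p = 0.0509, limma; 0.00354 with the block). *1700020I14Rik*, the mouse Cyrano RNA that directs the decay of miR-7, was at 126.5 to 259.7 cpm in floxed and 266.5 to 484.6 cpm in H3atKO (1.10, adjusted p = 0.0633; 0.00559 with the block). Both were near 0 after the GC correction, at 0.13 and 0.06. *2900097C17Rik*, the mouse Norad RNA that binds Pumilio proteins, stood at 0.75 (adjusted p = 0.188) and *Pvt1*, next to *Myc*, at 0.35 (adjusted p = 0.567), and both were below 0 with library totals alone, at -0.10 and -0.51, as was *Pvt1* with the GC correction, at -0.06.

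The factors that handle nuclear RNA were taken as lists, whose shares of calls are set beside those of all genes given above (9.42% higher and 7.07% lower, 5.59% and 3.11% with the GC correction, and 24.8% and 28.7% with the block). Of 23 paraspeckle proteins, 4 (17.4%) were called higher and 0 lower in the main fit (limma, median log2 fold change 0.71; 10 and 0 at an unadjusted p under 0.05, and 6 and 0 by edgeR). With the GC correction 3 and 0 were called (median 0.25), and with the replicate block 13 and 0. *Srsf10*, a splicing factor, and *Fam98a* rose by log2 fold changes of 1.63 and 1.43 (adjusted p = 0.0281 and 0.0243, limma), and after the correction by 0.69 and 1.20 (0.0485 and 0.0261). *Dazap1* (-0.55) and *Rbm14* (-0.46) were not called in the main fit. With the GC correction they stood at 1.37 and 1.11 (adjusted p = 0.0566 and 0.0573, limma). With the block added to the correction both were called higher, at 1.39 and 1.12 (adjusted p = 0.0113 and 0.0235).

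Of 23 genes listed for the nuclear RNA exosome, which degrades unstable noncoding RNA, 4 (17.4%) were called higher and 0 lower (limma, median 0.52). At an unadjusted p under 0.05 these were 9 and 3, and by edgeR 5 and 3. The list also holds *Xrn2*, an exonuclease, and *Mpp6*, in the mouse a membrane scaffold gene, neither called (adjusted p = 0.0785 and 0.138, limma). The shares and medians are therefore not those of exosome subunits and adaptors alone. With the GC correction 2 were called higher and 1 lower (median -0.03), and with the replicate block 10 and 6. *Tent4b*, a noncanonical poly(A) polymerase, rose by 1.33 (adjusted p = 0.0316; 0.87 and 0.0452 after the correction). *Papolg* (1.26), the catalytic subunit *Exosc10* (-1.79) and the core subunit *Exosc5* (-3.91) were not called in the main fit (adjusted p = 0.0607, 0.0546 and 0.12) and were with the block (0.00725, 0.00294 and 0.00403). *Exosc5* had only 10, 3 and 2 counts in H3atKO replicates 1 to 3, so its fold change (standard error 1.72) rests on values near the floor of 3 counts.

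Of 20 factors of nonsense-mediated decay, 2 (10%), close to the share of all genes, were called higher and 0 lower (limma, median -0.21; 4 and 6 at an unadjusted p under 0.05, and 3 and 4 by edgeR). With the GC correction 0 were called in either direction (limma; 3 and 1 at an unadjusted p under 0.05), and with the block 6 and 7. *Smg1*, the kinase of that pathway, rose by 1.38 (adjusted p = 0.0372, limma). Its adjusted p was 0.068 after the correction and 0.0325 with the block added to it. *Pnrc2* (1.28), *Dhx34* (-2.43) and *Smg9* (-3.16) were called with the block (adjusted p = 0.00355, 0.00653 and 0.00336) and not in the main fit (0.0512, 0.109 and 0.0714). Counts were low for *Dhx34* (23, 19 and 5) and *Smg9* (23, 13 and 5) in H3atKO replicates 1 to 3. With library totals alone, which set the median of all genes to -0.94, the paraspeckle and exosome medians were -0.13 and -0.33.

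Markers of the cells in the tissue set the ground for these values. The 8 adipocyte markers summed to between 13856 and 32395 cpm in floxed and between 15741 and 27032 cpm in H3atKO, and 2 of the 8 lay lower in every H3atKO pool. The 6 brown and beige markers summed to between 36.5 and 89.7 cpm in floxed and between 326.5 and 1154 cpm in H3atKO, and 2 of the 6 were called higher. The 7 skeletal muscle markers summed to between 597.5 and 2612 cpm in floxed and to 393.7, 3411 and 2.72 cpm in H3atKO replicates 1 to 3. The 4 nerve markers were at 89.3 to 117.9 and 44.7 to 63.5 cpm, the 5 epithelial markers at 0.481 to 2.90 and 0.0 to 4.55 cpm, and the 4 Y-linked genes at 210.0 to 408.2 and 571.6 to 1040 cpm in floxed and H3atKO, where 1 of the 4 nerve markers was called lower and 3 of the 4 Y-linked genes higher. *Xist*, an RNA of female cells, had from 2 to 26 counts across the pools, which the methods give as male. The cause of the difference in the Y-linked genes was not tested.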

How the data were processed

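RNA-seq of pooled IngWAT RNA was analysed in 3 floxed and 3 H3atKO samples, each 500 ng of total RNA from 2 or 3 mice. Per the labels and the methods of the study, the authors trimmed reads with cutadapt 1.3, filtered low-complexity reads, aligned them to GRCm38 with STAR 2.4.2a and deposited raw gene counts from HTSeq 0.6.1 on Ensembl genes, without normalization. Reads with several places or overlapping genes were given to no gene. The strand setting of the counting is not given in the sources used here. The library kit is stranded, and of 219 genes of 200 bases or longer that lie wholly under exons of the other strand, 93 had any count, 15 had at least 50 counts in total and the highest had 2621, so that some reads of antisense genes may still come from their partners. *Gm42418* and *A630072M18Rik* lie to 100% and 95% under exons of the other strand.

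Positions, gene types and GC content came from GENCODE M21, which matched 46005 of 46517 identifiers. The 14967 genes that reached 1 cpm in any 1 sample were scaled with TMM (edgeR 4.0.16) and compared by limma 3.58.1 (voom, moderated test) in R 4.3.3 as in the study's methods, here with Benjamini-Hochberg adjustment over all of them. At these depths 3 counts correspond to 0.0852 to 0.126 cpm, a floor for counting error only. Pools are the replicates, so p-values measure the spread between pools. After subtraction of the genotype mean, Pearson's r across genes between samples of the same replicate number was 0.517, 0.389 and 0.281. The numbers were therefore taken as pairs in the blocked fits but not in the main fit, and the blocked value is given where it changes the call of a named gene. The labels do not say that samples of the same number belong together. Within each genotype the dependence on GC content over all genes also ran with the replicate number, and its part in these correlations was not tested. The GC correction subtracts from each sample a robust loess curve (span 0.3) on GC content, and with it any effect of genotype that follows GC content. The neighbour is the coding gene that overlaps a lncRNA most or lies nearest. Named genes are the 12 lncRNAs with the highest and 12 with the lowest fold change, their neighbours, the 5 highest per kilobase, the lncRNAs found in lists by role, and up to 2 genes per direction of each list of RNA-handling factors. The lncRNAs, lists and tests were chosen with earlier results of these data known. DESeq2 1.42.0 and the other alternatives are given in the closing section. The fits were tested on simulated counts.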

Additional observations from a re-analysis of the deposited data

How the results depend on the processing

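The number of lncRNAs called moved with most settings, while the direction of the median moved with library totals alone. Against 14 higher and 4 lower calls, edgeR gave 23 and 6, DESeq2 39 and 11, library sizes alone 2 and 21, the replicate block 43 and 12 and the GC correction 6 and 7, with the backgrounds given above. Sample quality weights gave 41 and 16 (background 26.7% and 29.7%). The replicate block with the GC correction gave 15 and 15 (background 13.1% and 9.71%). Testing genes without a filter gave 8 higher calls, at least 10 counts in every sample gave 7 lower calls, all long noncoding gene types gave 22 and 10, and an adjusted p under 0.1 gave 36 and 11. With 1 library left out the calls ranged from 0 to 27 higher and from 0 to 10 lower. The most were called without floxed replicate 3 (background 18.5% and 25.9%). Without floxed replicate 2 there were 0 of either (limma; 21 and 6 at an unadjusted p under 0.05), and of all 14860 genes tested there 1 was called higher and 0 lower. The replicate block changed the calls of the lncRNAs named above where a blocked value is given. The median of 0.41 became -0.44 under scaling by library sizes, 0.07 under the GC correction, 0.08 with the block and the GC correction and 0.61 for genes with at least 100 counts, and ranged from 0.31 to 0.56 with 1 library left out. The cause of these changes was not tested.

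Some of the single genes named changed sign, among them *Dazap1*, *Rbm14* and *Gas5* with the GC correction, whose values are given where they are named. With library sizes alone *Gm454* was at -0.13, *Dnm3os* at -0.71, *Pvt1* at -0.51, *Kcnq1ot1* at -0.09 and *2900097C17Rik* at -0.10. With the GC correction *Dnm3os* was at -1.05, *Epb41l4aos* at 1.15, *Pvt1* at -0.06, *Kcnq1ot1* at -0.26, *Tep1* at 0.22 and *Setd1b* at 1.47. With the block and the GC correction these were at -1.15, 1.17, -0.08, -0.23, 0.24 and 1.49, and *Snhg6* at -0.03. *Dnm3os* was also at -0.12 with edgeR and -0.07 with DESeq2, and from -0.36 without floxed replicate 1 to 0.71 without floxed replicate 3. *Ms4a8a* was at 0.47 with quality weights, 0.44 without floxed replicate 3 and 0.32 without H3atKO replicate 2, against -0.76 without floxed replicate 2. *Ick* was at 0.02 with edgeR, 0.09 with DESeq2, 0.04 with RLE factors, 0.0 with quality weights and at 0.01 without floxed replicate 3 and 0.18 without H3atKO replicate 1, against -0.21 without H3atKO replicate 2. *Slc44a3* was at 0.04 with DESeq2 and at 0.15 without floxed replicate 2 and 0.25 without H3atKO replicate 1, against -0.50 without H3atKO replicate 2. With the longest transcript in place of all exons, the 5 lncRNAs highest per kilobase were the same.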

Other observations

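Long noncoding genes of other annotated types were not among the 134 lncRNAs but were measured as well. Of 78 such genes with at least 50 counts in every sample, 63 of them processed transcripts, 8 (10.3%) were called higher and 6 (7.69%) lower in H3atKO (median log2 fold change 0.32), close to the 9.42% and 7.07% of all genes, and 4 and 3 with the GC correction (median -0.22). *A530053G22Rik* had the highest value of these calls (log2 fold change 2.79, adjusted p = 0.0118, limma). It was not called after the correction (adjusted p = 0.101) but was with the block added to it (adjusted p = 0.0268). *4921531C22Rik* rose by 1.71 (adjusted p = 0.0255) and *3110039I08Rik* fell by 1.58 on the log2 scale (adjusted p = 0.0244), and both were called after the correction as well (adjusted p = 0.0163 and 0.00908). *Peg13*, an imprinted lncRNA, fell by 1.27 (adjusted p = 0.039, 0.0682 after the correction, and 0.038 with the block added to it). *Gas5*, a snoRNA host that accumulates in growth arrest, stood at 0.04 on the log2 scale (adjusted p = 0.922, limma). With the GC correction it stood at -0.81 (adjusted p = 0.105), and it was called lower when the block was added (-0.81, adjusted p = 0.0428). *Firre*, an X-linked RNA that organises nuclear contacts, stood at -0.81 (adjusted p = 0.0723, and 0.015 with the replicate block). These genes were chosen after their values were seen.

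Of the lincRNA and antisense genes under the minimum of 50 counts, 404 were tested, and 14 (3.47%) were called higher and 16 (3.96%) lower, both below the shares of all genes. *Mir155hg*, the host of an inflammatory microRNA, had 20 counts in its lowest sample and a log2 fold change of 2.95 (adjusted p = 0.0465, limma; 0.123 after the GC correction). *Snhg20*, with 17 counts in its lowest sample, had one of -2.08 (adjusted p = 0.0421, and 0.0738 after the correction).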
